A study of Mus musculus with 6 samples.

Results

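The 2209 genes described here separated both cell populations grown with GM-CSF from the macrophages grown with M-CSF. They were chosen from 19939 measured genes: the average of the GM-BMDC and GM-BMM means was set against the M-BMM mean, and a gene was kept where it passed limma at an adjusted p of 0.05 and all 4 GM-CSF arrays lay on the same side of both M-BMM arrays. Of these shared genes, 1049 were higher and 1160 lower in the GM-CSF populations. The series holds 6 Affymetrix arrays of sorted mouse bone marrow cells, 2 in each of 3 groups, which the labels call biological replicates without saying how many animals or cultures stand behind them. The p-values therefore measure the spread between arrays, and arrays have no read depth: their small number limits the precision. All groups came from C57BL/6J mice labelled male, 6 to 10 weeks old, whose marrow spent 7 days in culture. GM-BMDC and GM-BMM received 25 ng/ml of GM-CSF throughout and were split by sorting into an MHCIIhighF4/80low gate, labelled dendritic cells, and an MHCIIlowF4/80high gate, labelled macrophages. M-BMM received 20% L cell conditioned medium, a mixture that supplies M-CSF among other secreted products, and were sorted as CD11b+F4/80+. Medium, growth factor and gate of M-BMM differ together from those of the GM-CSF cells, so their parts in a difference cannot be told apart. Signals below are RMA values on the log2 scale, differences are GM-CSF mean minus M-BMM on that scale with their standard error, and n = 2 arrays in each group.

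GM-CSF and M-CSF are the cytokines most used to grow myeloid cells from marrow. GM-CSF binds an alpha chain encoded by Csf2ra and a signalling beta chain encoded by Csf2rb. The beta chain activates the kinase JAK2 and the transcription factor STAT5, which switches on feedback inhibitors such as CISH and the SOCS proteins. M-CSF binds CSF1R, a receptor tyrosine kinase on macrophages, and supports their survival in most tissues. In the lung, GM-CSF drives the alveolar macrophage through the nuclear receptor PPAR gamma, and in culture it yields cells with dendritic cell features next to macrophages.

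In bulk RNA of sorted cells, fewer cells of a type and less RNA per cell cannot be told apart. Among all genes tested, limma called 1262 higher (6.33%) and 1256 lower (6.30%). The non-overlap condition alone held for 2557 genes above M-BMM (12.8%) and 3287 below it (16.5%), and both conditions together for 5.26% and 5.82% of genes. The non-overlap condition reads the same arrays as the test, so it adds no independent support. It removed 309 of the limma calls, and 3635 genes whose arrays did not overlap had no limma call. The median difference of all genes was -0.01. After each array was centred on its median, that median was -0.05 and the share of higher genes among those with no overlap moved from 43.8% to 31.3%. Among shared genes this share was 47.5% as deposited, 39.1% after centring and 43.2% after quantile normalization. At the border of the condition, Rogdi (difference 1.36) and Klk1b8 (0.59) lay just inside, with gaps of 0.0011 and 0.0018 between the groups. Sgpl1 (-0.51) and Cdk2ap1 (0.45) lay just outside.

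The higher genes included the larger differences. At least 2-fold differences were found for 463 higher and 282 lower genes, at least 4-fold for 160 and 62, at least 8-fold for 63 and 17, and at least 16-fold for 25 and 6. In 47 higher genes the M-BMM mean, and in 43 lower genes the GM-CSF mean, was under 5.04, the 25th percentile of all values. The files mark no background, so folds against such means are against a signal not shown to exceed it.

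Leaving out either M-BMM array lowered the counts most among single arrays. Over the shared genes, the median distance between replicates was 0.11 in M-BMM, 0.19 in GM-BMDC and 0.18 in GM-BMM. Without M-BMM replicate 1 the counts were 390 higher and 227 lower, and without M-BMM replicate 2 they were 357 and 278, each time with 1 array standing for M-BMM. Whether the smaller group or the closeness of the pair sets this was not tested. Of the 157 shared genes that a fixed rule named, 92 kept their call without each single array. Named genes lost calls in these fits but reversed in 0 cases. Small list counts moved too: unless stated otherwise, a list count of 3 or fewer moved by at most 2 members without any 1 array. All list shares below are to be read against 5.26% higher and 5.82% lower among all genes. A share near these is not read as a result about a list. The rule itself tests the average: with each population also past the threshold on its own, 400 genes were higher and 377 lower.

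The arrays did not all match the male label. Xist, the RNA that coats an inactive X chromosome, lay between 10.68 and 11.66 in both GM-BMDC arrays and GM-BMM replicate 1, and between 4.53 and 4.93 in the other 3 arrays. The Y-linked genes Eif2s3y, Uty and Kdm5d were low in the replicate 1 arrays of GM-BMDC and of GM-BMM, with Eif2s3y at 3.94 and 3.66 there and from 8.80 to 9.32 elsewhere. None of these 4 genes was called in the shared comparison (limma adjusted p from 0.077 to 0.354), and 0 of 9 Y-linked genes were shared, with 1 of the 9 lower at an unadjusted limma p under 0.05. All 4 met the non-overlap condition, Xist above M-BMM (gap 0.13) and Eif2s3y, Uty and Kdm5d below it (-0.08, -0.17 and -0.27). Arrays within a GM-CSF group differed widely, with standard deviations of 3.44 and 3.85 for Eif2s3y, and of 4.7 for Xist in GM-BMM. The missing limma calls are therefore no check on sex. The X chromosome held 31 higher and 39 lower shared genes, 9.47% of its 739 tested genes against 11.1% of all genes. Adding the average Y-linked signal to the fit gave 678 higher and 572 lower genes, of which 661 and 564 were among those reported. With Xist as a covariate there were 354 and 226, and without the 3 arrays high in Xist, which leaves GM-BMM replicate 2 against M-BMM, 974 and 600, of which 554 and 426 were among those reported. All arrays high in Xist belong to the GM-CSF groups, and the part of sex in single results was not tested beyond these fits.

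**Figure D1:**
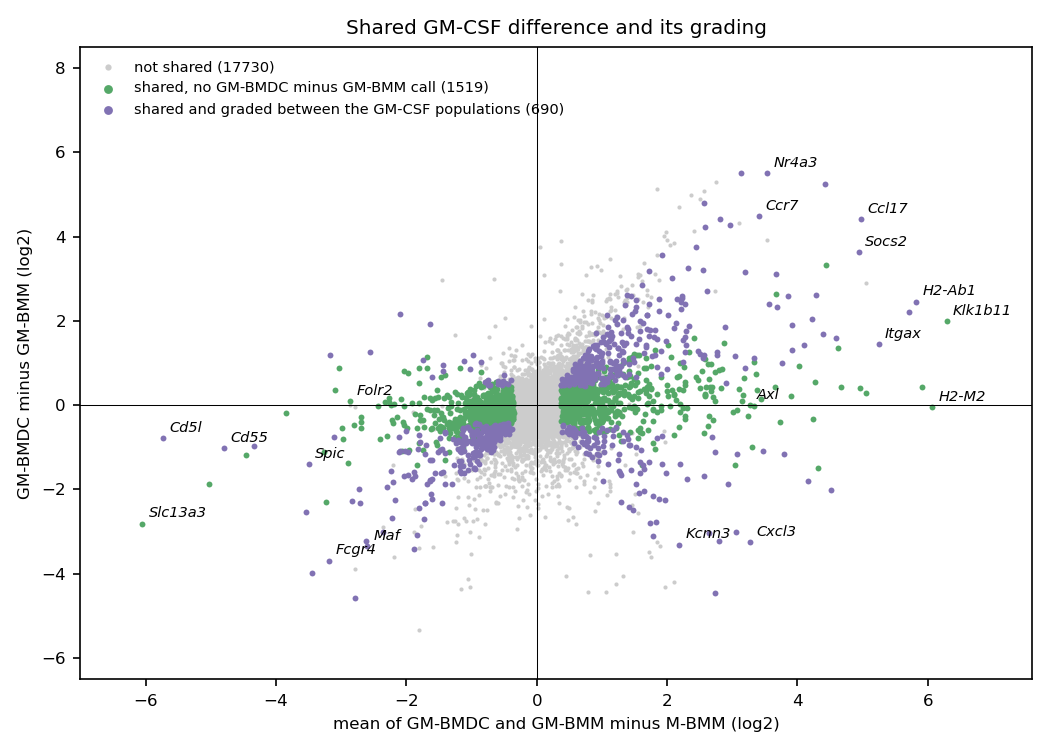
Each point is 1 of 19939 genes, with the GM-CSF mean minus M-BMM on the x axis and GM-BMDC minus GM-BMM on the y axis, both as log2 differences. The 1519 green points are shared genes with no call between the GM-CSF populations, the 690 purple points are shared genes called between them, and grey points are not shared; H2-M2 and Axl lie near the horizontal line, Nr4a3 and Ccr7 far above it.

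The receptor for GM-CSF itself was higher in both GM-CSF populations, and the receptor for M-CSF was not called. Csf2rb, the common beta chain, measured 12.64 and 12.71 in GM-BMDC, 12.60 and 11.98 in GM-BMM, and 10.29 and 10.30 in M-BMM. The alpha chain Csf2ra measured 11.09 and 11.24, 10.99 and 11.07, and 9.87 and 9.94 in the same order. Every GM-CSF array exceeded both M-BMM arrays by more than the distance between M-BMM replicates. The differences were 2.19 ± 0.17 for Csf2rb (4.56-fold, limma adjusted p = 0.000313) and 1.20 ± 0.10 for Csf2ra (2.29-fold, limma adjusted p = 0.00043). Csf2rb2, the neighbouring gene for the IL-3-specific beta chain, differed by 2.66 ± 0.15 (6.32-fold). Its sequence is close to that of Csf2rb, so their probes may share signal. None of these 3 genes had a call between GM-BMDC and GM-BMM: their differences were 0.38, 0.13 and 0.43, with 95% intervals from -0.07 to 0.84, -0.13 to 0.40 and 0.01 to 0.84.

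Csf1r, the M-CSF receptor, measured 10.53 and 11.51 in GM-BMDC, 11.62 and 11.97 in GM-BMM, and 11.69 and 11.57 in M-BMM, and the groups overlapped (-0.23 ± 0.25, limma adjusted p = 0.678). Csf3r, the G-CSF receptor, was lower by 5.13-fold (-2.36 ± 0.33), from 10.61 and 10.50 in M-BMM to 9.52 and 9.86 in GM-BMM and to 6.01 and 7.37 in GM-BMDC. Its GM-BMM difference alone was -0.86 (limma adjusted p = 0.285). The call of Csf3r ended without M-BMM replicate 1 or 2 (adjusted p = 0.0758 and 0.0645). Flt3 and Kit, receptors of early progenitors, passed limma on average (0.67 ± 0.17 and 1.02 ± 0.18), but their GM-BMM arrays overlapped those of M-BMM, so they were not shared. In all, 3 of 17 receptor and ligand genes were higher and 1 lower, with a median difference of 0.18 against -0.01 for all genes. The ligands Csf2, Il3 and Il5 were under 5.04 in every array, and Csf1 differed by 1.14 ± 0.33 without passing (limma adjusted p = 0.0694).

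Downstream of the receptor, 9 of 32 measured genes of JAK-STAT signalling and its feedback were higher (28.1%) and 1 lower (3.12%). The shares of all genes were 5.26% and 5.82%, and the list median was 0.12. The kinase gene Jak2 measured 11.83 and 11.38 in GM-BMDC, 10.25 and 10.52 in GM-BMM, and 8.59 and 8.39 in M-BMM, a difference of 2.50 ± 0.16 (5.67-fold, limma adjusted p = 0.00014). Socs2, a feedback inhibitor, measured 11.98 and 11.52, 9.33 and 6.91, and 4.85 and 5.13, a difference of 4.94 ± 0.57 (30.7-fold). Cish, another STAT5 target, measured 10.10 and 9.44, 9.54 and 7.03, and 6.03 and 6.28 (2.87 ± 0.60, limma adjusted p = 0.0203). For both, GM-BMM replicate 2 was the lowest GM-CSF array and still above M-BMM. Socs1 was higher by 1.25 ± 0.22 and had more signal in GM-BMM (9.59 and 8.91) than in GM-BMDC (8.21 and 7.69). Pim2, a survival kinase gene, was lower by -1.75 ± 0.36. Jak2 and Socs2 kept their calls without each single array. The Socs2 difference did not keep its size with the Xist covariate or without the arrays high in Xist. Socs2 also lost its call with the GM-CSF arrays as 1 group. Cish, Socs1 and Pim2 lost their calls in that fit and with the Xist covariate. Cish lost its call without GM-BMDC replicate 1 (adjusted p = 0.0534), and Cish, Socs1 and Pim2 lost theirs without either M-BMM array (adjusted p from 0.0964 to 0.188). The list then had 2 higher and 0 lower members in both cases, and 3 and 0 with each population past the threshold on its own.

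The start sites of Cish and Csf2rb2 hold the letters of the STAT5 recognition motif TTCNNNGAA, which reads the same on both strands. They are shown because, of the 8 shared genes of this pathway searched that have windows in the table, they are the 2 with a match. The windows of Csf2ra, Jak2, Socs1, Stat5a, Pim1 and Bcl2 held none. Sequences are from RefSeq on GRCm38.p6, with the motif in capitals. The Cish stretch covers the first 25 bases of the transcript at chr9:107296659-107296683 on the plus strand, with matches at bases 1 and 12. The Csf2rb2 stretch covers the 25 bases before the start at chr15:78305722-78305746 on the minus strand, with a match at -15.
Cish: TTCCTGGAAagTTCTTGGAAatctg
Csf2rb2: gtgtccacaaTTCTGAGAAgcaagc
Windows ran from 250 bases before to 50 after a start. Of 32851 windows in the table, 2726 (8.3%) held the motif, as did 73 of 1105 windows of shared higher genes (6.61%) and 71 of 1211 of shared lower genes (5.86%). The windows matched 832 of the 1049 higher and 932 of the 1160 lower genes. A match is a description of the letters and says nothing of binding.

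**Figure D2:**
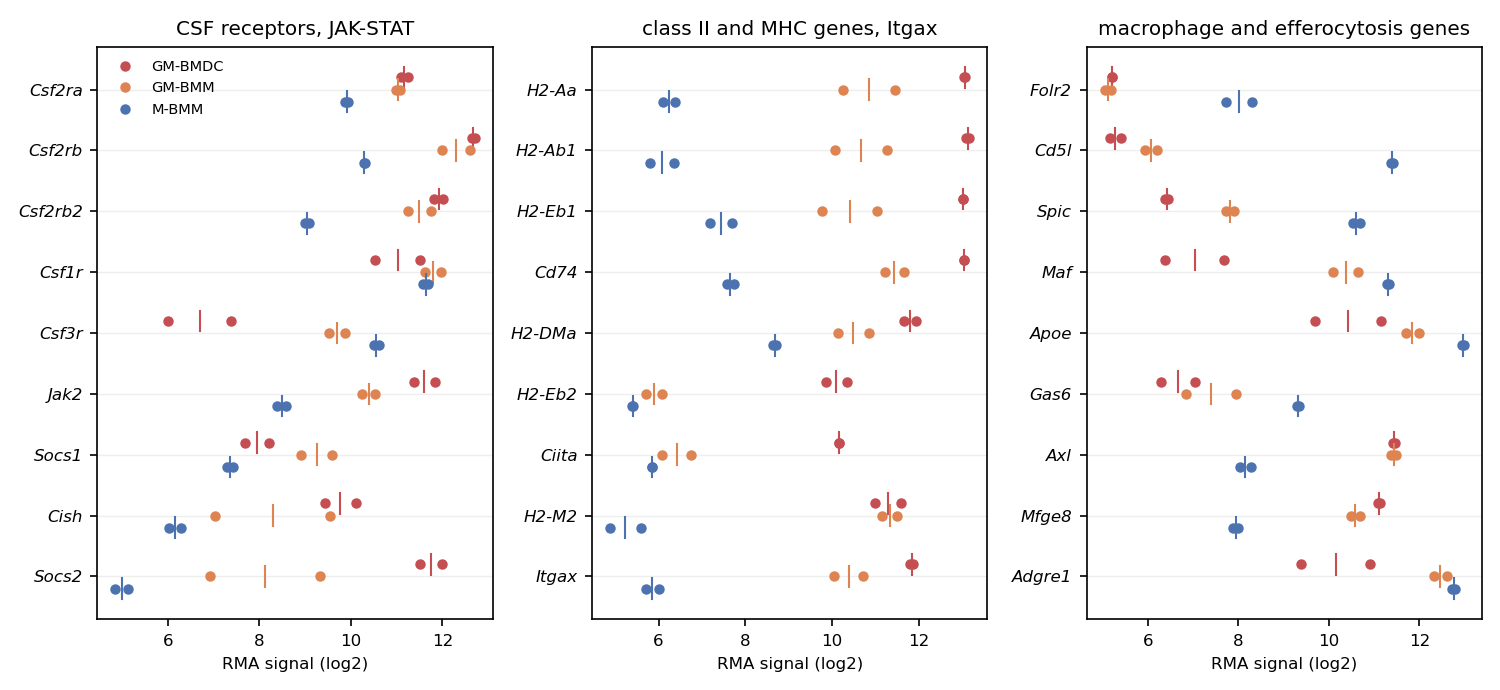
Points are single arrays on the RMA log2 signal axis and vertical ticks are group means of 2 arrays, for genes of growth factor receptors and JAK-STAT signalling, of MHC and Itgax, and of macrophage identity and efferocytosis. Csf2ra, Csf2rb and Axl sit together in both GM-CSF populations and apart from M-BMM, Csf1r overlaps, and Maf and Adgre1 are lowest in GM-BMDC.

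MHC class II genes, whose products present peptides to helper T cells, included 2 of the 15 largest higher differences, H2-Ab1 and H2-Aa, with the invariant chain gene Cd74 as another of the 15. They also set the gate between the GM-CSF populations, so their order between GM-BMDC and GM-BMM is not a finding. M-BMM were sorted without regard to class II. Because GM-BMDC were selected as MHCIIhigh and GM-BMM as MHCIIlow, the gates also bear on the size of the average difference. H2-Ab1 measured 13.09 and 13.17 in GM-BMDC, 10.08 and 11.27 in GM-BMM, and 5.81 and 6.35 in M-BMM (5.82 ± 0.31, 56.6-fold). H2-Aa differed by 5.72 ± 0.29 (52.6-fold) and H2-Eb1 by 4.28 ± 0.32 (19.5-fold, limma adjusted p = 0.000284). Against M-BMM, H2-Ab1 was higher by 133-fold in GM-BMDC and 24.2-fold in GM-BMM. For H2-Aa these folds were 113 and 24.4, and for H2-Eb1 48.2 and 7.85. Cells sorted as MHCIIlow thus still carried far more of these RNAs than M-BMM. H2-Ea lay between 4.03 and 4.70 in every array and was not called. Adgre1, which encodes F4/80, was lower by -1.45 ± 0.36. GM-BMDC were sorted as F4/80low and M-BMM as F4/80+, so neither its order between the GM-CSF populations nor GM-BMDC below M-BMM is a finding. In GM-BMM alone the difference was -0.30 (limma adjusted p = 0.797), against -2.61 in GM-BMDC. Adgre1 measured 9.39 and 10.91 in GM-BMDC, 12.32 and 12.61 in GM-BMM, and 12.73 and 12.79 in M-BMM. Its call (limma adjusted p = 0.0396) ended without either GM-BMM array (0.0836 and 0.0546) or either M-BMM array (0.232 and 0.231). Itgam, which encodes CD11b, was not called (limma adjusted p = 0.0785).

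Outside the gate genes, 8 of 13 class II presentation genes were higher (61.5%) and 1 lower (7.69%), against 5.26% and 5.82% of all genes. The list median was 1.13. Cd74, the invariant chain that guides class II molecules, measured 13.05 and 13.04 in GM-BMDC, 11.22 and 11.66 in GM-BMM, and 7.57 and 7.73 in M-BMM (4.59 ± 0.14, 24.1-fold, limma adjusted p = 1.12e-05). H2-DMa, which loads peptides, differed by 2.47 ± 0.19. Ciita, the master activator of class II transcription, did not follow the same steps: it measured 10.17 and 10.17 in GM-BMDC, but 6.09 and 6.74 in GM-BMM and 5.84 and 5.84 in M-BMM. Its average difference of 2.45 ± 0.17 held 4.33 in GM-BMDC and 0.58 in GM-BMM (limma adjusted p = 0.162). H2-Eb2 showed the same shape (4.70 and 0.48, the latter at an adjusted p of 0.23), while Cd74 differed by 5.39 and 3.79. Lgmn, an asparaginyl endopeptidase of the lysosome, was lower by -0.84 ± 0.12, and its call ended without M-BMM replicate 1 or 2 (adjusted p = 0.0611 and 0.0682). The list then held 7 higher and 0 lower members each time, and 4 and 0 with each population past the threshold on its own.

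Class II promoters carry conserved X and Y boxes that CIITA's partner factors bind, and 4 stretches with matches are shown. Among other shared class II genes, the windows of H2-DMa held no AGCAAC and 1 of its 2 windows held CCAAT, those of Ifi30 and Ctss held neither, and that of H2-Eb2 held both. No window was available for H2-Ab1, Cd74 or Ciita, so they could not be searched. Each stretch runs from -110 to -21 before the start in RefSeq's GRCm38.p6 and reads in the direction of the gene. Capitals mark the X box core AGCAAC and the Y box CCAAT, or ATTGG on the other strand. H2-Eb1 is at chr17:34305757-34305846 (plus), H2-Aa at chr17:34287844-34287933 (minus), H2-Oa at chr17:34092269-34092358 (plus) and H2-Ob at chr17:34238795-34238884 (plus).
H2-Eb1: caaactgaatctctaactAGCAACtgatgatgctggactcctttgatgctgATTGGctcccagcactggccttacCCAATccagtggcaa
H2-Aa: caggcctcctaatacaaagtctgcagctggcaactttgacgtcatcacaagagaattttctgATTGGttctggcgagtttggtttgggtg
H2-Oa: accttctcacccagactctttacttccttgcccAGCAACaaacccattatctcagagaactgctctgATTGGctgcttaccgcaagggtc
H2-Ob: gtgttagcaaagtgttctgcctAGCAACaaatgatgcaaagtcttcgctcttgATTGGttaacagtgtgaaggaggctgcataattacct
The X box core began at -92, -77 and -88 in H2-Eb1, H2-Oa and H2-Ob, and the ATTGG at -59, -48, -43 and -57 in H2-Eb1, H2-Aa, H2-Oa and H2-Ob. Among all 32851 windows, 14.8% held AGCAAC on either strand, 37.4% CCAAT and 5.84% both. The shares among shared higher genes were 13.2% for AGCAAC and 34.1% for CCAAT. H2-Oa and H2-Ob, which encode the chains of the inhibitory H2-O molecule, differed by 2.25 ± 0.12 and 1.87 ± 0.15. H2-Ob had 0.76 of this in GM-BMM (limma adjusted p = 0.0509). These 2 genes were chosen for their promoters after their values were seen.

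The gene with the largest mean difference was Klk1b11, a kallikrein-related peptidase, at 13.01 and 13.16 in GM-BMDC, 12.34 and 9.86 in GM-BMM, and 5.91 and 5.70 in M-BMM (6.29 ± 0.57, 78.0-fold). Klk1b1 differed by 4.63 ± 0.45. Neither the Klk1b11 nor the Klk1b1 difference kept its size without the arrays high in Xist. The Klk1b genes are close copies of each other, so which member gave the signal is uncertain. H2-M2, a non-classical MHC class I gene, followed at 6.07 ± 0.24 (67.3-fold, limma adjusted p = 1.91e-05), with 11.58 and 11.00, 11.15 and 11.51, and 5.59 and 4.88 in the same order. Plxdc2, a plexin-domain membrane protein gene, differed by 5.91 ± 0.17 (60.2-fold), with every GM-CSF array between 11.60 and 12.45 and M-BMM at 6.19 and 6.15.

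Secreted and matrix proteins stood among the next. Mmp12, the macrophage elastase, measured 12.89 and 12.81 in GM-BMDC, 12.80 and 12.35 in GM-BMM, and 7.73 and 7.59 in M-BMM (5.06 ± 0.14, 33.3-fold). Fn1, fibronectin, differed by 4.96 ± 0.17 (31.1-fold). Slc7a2, a transporter of arginine and other cationic amino acids, was among the top genes with more signal in GM-BMM (11.11 and 10.96) than in GM-BMDC (9.23 and 8.79), against 5.56 and 5.44 in M-BMM (4.52 ± 0.14, 23.0-fold). Plet1, a surface protein of epithelial and dendritic cells, differed by 4.44 ± 0.74, but its GM-BMM replicates lay at 10.71 and 7.45. The chemokine gene Ccl17 had the same weakness, at 10.74 and 6.74 in GM-BMM. With M-BMM replicate 1 or 2 left out, Plet1 (adjusted p = 0.115 and 0.0986) and Ccl17 (0.132 and 0.127) were not called.

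Among lower genes, Slc13a3, a sodium-coupled dicarboxylate transporter, led with 5.90 and 5.92 in GM-BMDC, 7.10 and 10.35 in GM-BMM, and 13.29 and 13.45 in M-BMM (-6.05 ± 0.74, 66.5-fold). Without M-BMM replicate 2 its adjusted p was 0.0522. Cd5l, a secreted scavenger receptor family protein of tissue macrophages, was next with much tighter replicates: 5.15 and 5.40, 6.19 and 5.93, and 11.42 and 11.37 (-5.73 ± 0.12, 53.1-fold, limma adjusted p = 4.31e-06). Cd55, which protects cells from complement, was lower by 27.9-fold (-4.80 ± 0.19), and its paralog Cd55b by 4.57-fold. Ptprm, a receptor-type tyrosine phosphatase, was lower by 20.1-fold (-4.33 ± 0.19), and Raver2, an RNA-binding protein gene, by 32.7-fold (-5.03 ± 0.56). The Slc13a3 and Raver2 differences did not keep their size with the Xist covariate or without the arrays high in Xist.

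Further down this order were Tmtc4 (-3.85 ± 0.21), Rapgef5, a guanine nucleotide exchange factor gene (-3.54 ± 0.38), Cp, the copper carrier ceruloplasmin (-3.45 ± 0.14), Ust, a sulfotransferase gene (-3.17 ± 0.18), and Gria3, a glutamate receptor subunit gene (-3.11 ± 0.10). Gria3 measured 4.90 and 4.74 in GM-BMDC, 5.63 and 5.52 in GM-BMM, and 8.36 and 8.25 in M-BMM. The Rapgef5 difference did not keep its size with the Xist covariate or without the arrays high in Xist. That of Cp did not keep its size without those arrays. Fcrl5 (-4.46 ± 0.84) and Cd300e (-3.26 ± 0.76), which encode immunoglobulin-like receptors, varied widely between the GM-BMM replicates, at 5.24 and 8.89, and at 6.54 and 9.48. Their calls ended without M-BMM replicate 1 or 2, with adjusted p of 0.14 and 0.134 for Fcrl5 and 0.225 and 0.193 for Cd300e. Cd300e was also lost without GM-BMDC replicate 1 (0.0714). Across the 222 shared genes of at least 4-fold, GM-BMM replicate 2 lay nearer to M-BMM than replicate 1 in 165. For GM-BMDC replicate 2 this count was 119. Over all 2209 shared genes the GM-BMM count was 1432, and it was not taken over all measured genes. GM-BMM replicate 2 is also the only GM-CSF array with low Xist (4.93, against 11.58 in GM-BMM replicate 1). The part of sex in these counts was not tested.

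**Figure D3:**
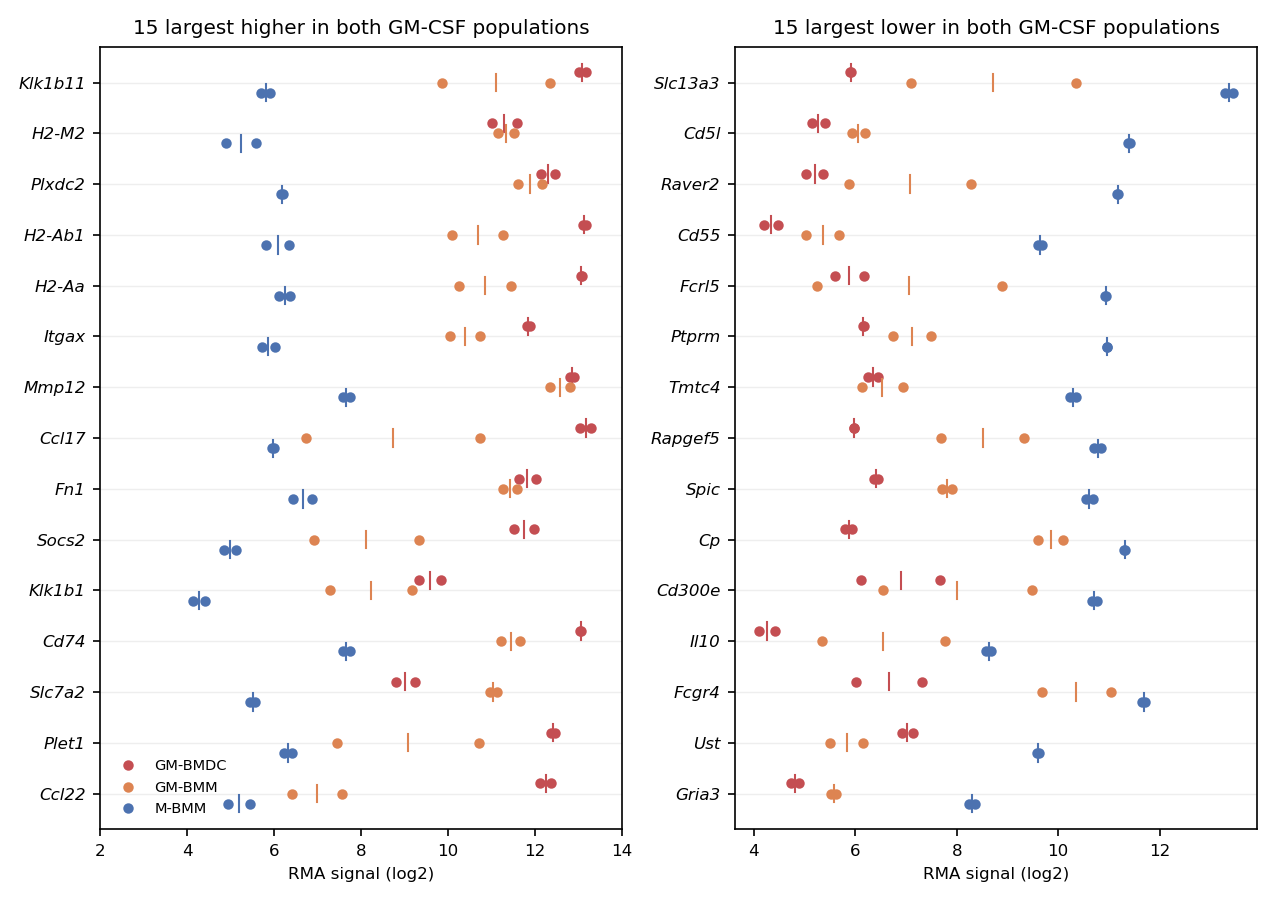
Points are single arrays on the RMA log2 signal axis and ticks are group means of 2 arrays, for the 15 shared genes with the largest difference in each direction. GM-BMM replicates lie far apart for Ccl17, Plet1, Slc13a3 and Fcrl5, and close together for Mmp12, Cd5l and Gria3.

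Genes of conventional dendritic cells were higher in the GM-CSF populations by the rule in 15 of 42 cases (35.7%) and lower in 2 (4.76%), with a median of 0.91. The other 25 were not called. Of all genes 5.26% were higher and 5.82% lower, so the lower share is not read as a result about the list. With each population past the threshold on its own, 11 were higher and 0 lower. Itgax, which encodes the integrin CD11c, measured 11.87 and 11.80 in GM-BMDC, 10.72 and 10.05 in GM-BMM, and 6.01 and 5.71 in M-BMM (5.25 ± 0.19, 38.1-fold, limma adjusted p = 1.24e-05). Cd24a, a glycosylated surface protein, differed by 4.39 ± 0.37. Irf4, a transcription factor of type 2 dendritic cells, measured 10.39 and 9.97, 8.34 and 7.19, and 5.36 and 5.45 (3.57 ± 0.29). Ccr7, the lymph node homing receptor, differed by 3.41 ± 0.16, with 5.65 in GM-BMDC and 1.16 in GM-BMM. Of the 42 genes, 25 were above in GM-BMDC against GM-BMM and 2 below, against 4.69% and 5.74% of all genes. The gates that split these populations are labelled dendritic cells and macrophages, which bears on this order. Cadm1 and Sirpa were lower (-0.45 ± 0.10 and -0.56 ± 0.12), with -0.47 and -0.18 in GM-BMM alone (limma adjusted p = 0.058 and 0.574). Both lost their call without either M-BMM array, as did Cadm1 without replicate 1 of either GM-CSF population, with adjusted p from 0.0529 to 0.208. The list had 13 higher and 0 lower members without M-BMM replicate 1, and 15 and 0 without replicate 2.

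Among macrophage identity genes, 14 of 48 were lower (29.2%), 2 were higher (4.17%) and 32 were not called, with a median of -0.44. Of all genes 5.82% were lower and 5.26% higher, so the higher share is not read as a result about the list. Spic, a transcription factor of red pulp macrophages, measured 6.45 and 6.37 in GM-BMDC, 7.72 and 7.90 in GM-BMM, and 10.68 and 10.54 in M-BMM (-3.50 ± 0.10, 11.3-fold). Folr2, the folate receptor beta of resident macrophages, measured 5.21 and 5.20, 5.04 and 5.18, and 8.31 and 7.72 (-2.86 ± 0.16), so it was low in both GM-CSF populations. Maf, a transcription factor of mature macrophages, was lower by -2.60 ± 0.33, with -4.27 in GM-BMDC and -0.93 in GM-BMM (limma adjusted p = 0.246). The higher members were Axl and Tbxas1, thromboxane synthase (0.97 ± 0.13), the latter not called without M-BMM replicate 2 (adjusted p = 0.0646).

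The lower count of this list varied with the fit: it was 4 without M-BMM replicate 1, 5 without replicate 2, 8 with the Y-linked covariate and 6 with each population past the threshold on its own. Without the 3 arrays high in Xist, 9 members were higher and 12 lower. Maf (adjusted p = 0.0564 and 0.0577), Apoe (0.138 and 0.136) and Gas6 (0.0664 and 0.0667) lost their calls without M-BMM replicate 1 or 2, whereas Spic, Folr2 and Cd5l kept theirs. Mertk and Fcgr1, further defining macrophage markers, were not called: Mertk lay between 9.41 and 10.84 in all arrays and Fcgr1 between 9.24 and 11.71.

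Receptors and bridging proteins for the uptake of dying cells were split, with 5 of 31 higher and 5 lower (16.1% each) and a median of 0.09. Axl, a receptor tyrosine kinase that recognises dying cells, measured 11.41 and 11.46 in GM-BMDC, 11.38 and 11.49 in GM-BMM, and 8.27 and 8.03 in M-BMM (3.28 ± 0.11, 9.74-fold). Gas6, its ligand, was lower by -2.30 ± 0.32, at 6.28 and 7.04, 7.94 and 6.84, and 9.29 and 9.35. Receptor and ligand thus differed from M-BMM in opposite directions. Mfge8, a bridging protein that binds phosphatidylserine, differed by 2.91 ± 0.10, and Olr1, a receptor for oxidised lipoprotein, by 4.27 ± 0.27 (10.64 and 9.77, 10.02 and 9.30, and 5.67 and 5.66). Marco, a scavenger receptor, was lower by -2.62 ± 0.29, with 5.77 and 5.88 in GM-BMDC, 8.44 and 9.65 in GM-BMM, and 10.17 and 9.94 in M-BMM. Elmo1, which links engulfment receptors to the cytoskeleton, was lower by -1.53 ± 0.11. Gas6 was not called without M-BMM replicate 1 or 2 (adjusted p = 0.0664 and 0.0667), and the list then had 5 and 2, or 3 and 2, members higher and lower. In the fit without GM-BMM replicate 2, 3 members were lower.

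C-type lectins, receptors for sugars, were split too, with 6 of 32 higher and 5 lower. Clec7a, the beta-glucan receptor Dectin-1, measured 10.96 and 11.19 in GM-BMDC, 10.92 and 10.35 in GM-BMM, and 7.36 and 7.03 in M-BMM (3.66 ± 0.18). Clec4n, Dectin-2, differed by 2.20 ± 0.22, and Ly75, the endocytic receptor DEC-205, by 2.60 ± 0.23. The lower members were Cd209f and the neighbouring Clec4a1, Clec4a2, Clec4a3 and Clec4a4, the last by -1.91 ± 0.31. The Clec4a genes are close copies, so probes may share signal. Clec4a1, Clec4a3 and Clec4a4 each lost their call without M-BMM replicate 1 or 2, with adjusted p from 0.0887 to 0.255. Clec4a1 and Clec4a3 were also lost without GM-BMM replicate 1 (0.0624 and 0.10). The list then fell to 4 higher and 1 lower without either M-BMM array, and to 4 and 2 without GM-BMM replicate 1.

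Among Fc receptors and their relatives, 2 of 13 were higher (15.4%) and 3 lower (23.1%), against 5.26% and 5.82% of all genes. Fcgr4, an activating receptor for IgG, measured 6.02 and 7.31 in GM-BMDC, 9.68 and 11.04 in GM-BMM, and 11.72 and 11.66 in M-BMM (-3.18 ± 0.43). Fcgr2b, the inhibitory receptor, was higher by 0.73 ± 0.13. Fcrls (-3.04 ± 0.39) and Fcrl1 (-2.26 ± 0.19) encode Fc receptor-like proteins. Fcgr4, Fcgr2b and Fcrls lost their calls without M-BMM replicate 1 or 2, with adjusted p from 0.0549 to 0.114, leaving 0 higher and 1 lower. Complement genes had 1 of 20 higher, Itgax, at 5% near the share of all genes, and 5 lower (25%), with a median of -0.31. Among the lower were Cd55, Cd59a, which blocks the membrane attack complex (-1.05 ± 0.19), and C1qc, a chain of C1q (-1.17 ± 0.31). Without M-BMM replicate 1 or 2, Cd59a (adjusted p = 0.106 and 0.133) and C1qc (0.258 and 0.25) were not called and 1 complement gene remained lower. C1qc was also lost without replicate 1 of GM-BMDC or of GM-BMM (0.0553 and 0.0838), where 4 and 3 were lower. Integrins had 2 of 27 higher (7.41%) and 3 lower (11.1%), with a median of -0.03. Their higher share was near the 5.26% of all genes, so it is not read as a result about the family. Itga1 measured 8.66 and 8.85, 8.52 and 6.94, and 4.85 and 4.98 (3.33 ± 0.37), and Itga6 was lower by -1.61 ± 0.14. Only 1 integrin was lower without either M-BMM array.

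Monocyte genes were higher in 8 of 17 cases (47.1%) and lower in 1 (5.88%), against 5.26% and 5.82% of all genes. The list median was 1.22. Requiring each population to pass the threshold on its own gave 6 higher and 0 lower. Ccr2, the receptor that brings monocytes out of the marrow, measured 10.09 and 11.04 in GM-BMDC, 9.95 and 9.70 in GM-BMM, and 7.36 and 6.29 in M-BMM (3.37 ± 0.34). F10, coagulation factor X, differed by 3.08 ± 0.16 and S100a4, a calcium-binding protein gene, by 2.77 ± 0.13. Treml4 was lower by -0.89 ± 0.16 until M-BMM replicate 1 or 2 was left out (adjusted p = 0.147 and 0.08). The list then had 5 higher and 0 lower members in either case.

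The list of PPAR gamma and lung macrophage genes had 13 of 28 higher (46.4%) and 1 lower, with a median of 1.00. These counts were 9 and 0 with each population past the threshold on its own. Atp6v0d2, a proton pump subunit gene of fused and alveolar macrophages, measured 10.79 and 11.28 in GM-BMDC, 12.03 and 10.71 in GM-BMM, and 6.98 and 6.95 in M-BMM (4.24 ± 0.33, limma adjusted p = 0.000343). Bhlhe40, a transcription factor induced by GM-CSF in several cell types, measured 10.55 and 10.25, 9.29 and 8.87, and 6.02 and 5.63 (3.91 ± 0.17). Cd9, a tetraspanin, differed by 3.74 ± 0.22. These 3 genes and Olr1 were its largest, and Marco was the lower member. Pparg itself was not called (1.1 ± 0.46, limma adjusted p = 0.193), nor were the lung macrophage markers Car4 (0.376) and Siglecf (0.395). Chil3 passed limma (1.89 ± 0.29), but its arrays overlapped. Without M-BMM replicate 1 or 2 there were 11 and 10 higher members.

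Genes of alternative activation, the response of macrophages to IL-4, were higher in 9 of 21 cases (42.9%) and lower in 1, with a median of 1.54. Requiring each population to pass the threshold on its own gave 6 higher and 1 lower. Egr2, a transcription factor of this response, measured 10.26 and 10.28 in GM-BMDC, 9.64 and 9.03 in GM-BMM, and 5.46 and 6.08 in M-BMM (4.03 ± 0.22). The list shares Irf4, Ccl17, Ccl22, Socs2 and Clec7a with other lists. Il4ra, the receptor for IL-4, was lower by -0.72 ± 0.12, a call that ended without M-BMM replicate 1 or 2 (adjusted p = 0.12 and 0.0705). The higher count was then 6 in either case.

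Among cytokine and growth factor genes, 12 of 34 were higher (35.3%) and 3 lower (8.82%), against 5.26% and 5.82% of all genes. The list median was 0.28. Inhba, which encodes an activin subunit, measured 9.95 and 8.86 in GM-BMDC, 11.47 and 10.35 in GM-BMM, and 5.98 and 5.70 in M-BMM (4.31 ± 0.37). Il6 differed by 3.30 ± 0.26, Il1a by 2.64 ± 0.30 and Il12b, the shared subunit of IL-12 and IL-23, by 2.15 ± 0.24. Il1a was highest in GM-BMM (12.34 and 11.35, against 9.12 and 8.53 in GM-BMDC), and Il12b in GM-BMDC (9.09 and 8.73, against 5.95 and 6.80 in GM-BMM). Il10, an anti-inflammatory cytokine gene, was lower: 4.42 and 4.10, 5.34 and 7.77, and 8.58 and 8.68 (-3.23 ± 0.56). Its call ended without M-BMM replicate 1 or 2 (adjusted p = 0.115 and 0.117), and the list then had 8 and 1, or 7 and 1, members higher and lower. With each population past the threshold on its own it had 5 and 1.

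Of 30 CC and CXC chemokine ligand genes, 11 were higher (36.7%) and 0 lower by the rule with limma, while 5 were lower at an unadjusted p under 0.05. The median was 0.46. Ccl5 measured 13.45 and 13.16 in GM-BMDC, 12.04 and 12.57 in GM-BMM, and 9.04 and 9.05 in M-BMM (3.76 ± 0.16). Ccl22, a ligand of CCR4, measured 12.36 and 12.12, 7.56 and 6.41, and 5.45 and 4.94 (4.42 ± 0.30). Cxcl3, a neutrophil attractant, ran in the opposite order within the GM-CSF cells, at 7.03 and 6.77, 10.70 and 9.61, and 5.45 and 5.08 (3.27 ± 0.28). The higher count was 6 and 5 without M-BMM replicates 1 and 2, and without GM-BMM replicate 2, 3 were lower. With each population past the threshold on its own, 7 ligands were higher. Among 19 chemokine receptors, 5 were higher and 1, Cxcr3, lower (-1.01 ± 0.13). Ccr1 differed by 2.63 ± 0.39 and lost its call without M-BMM replicate 1 or 2 (adjusted p = 0.0751 and 0.0854), leaving 3 receptors higher.

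Genes of cholesterol synthesis and transport were higher in 10 of 24 cases (41.7%) and lower in 2 (8.33%), against 5.26% and 5.82% of all genes. Their differences were smaller, with a median of 0.48. Sqle, squalene epoxidase, measured 8.89 and 9.10 in GM-BMDC, 8.30 and 7.85 in GM-BMM, and 7.49 and 7.16 in M-BMM (1.21 ± 0.16). Cyp51 differed by 1.33 ± 0.21, Fdft1 by 1.15 ± 0.19 and Mvd by 1.15 ± 0.11. Apoe, which carries cholesterol out of macrophages, was lower by -1.83 ± 0.35 (9.70 and 11.15, 11.70 and 12.00, and 12.95 and 12.99). These counts fell to 5 higher and 0 lower without M-BMM replicate 1, and to 2 and 1 without M-BMM replicate 2. Cyp51 (adjusted p = 0.0769), Sqle (0.0623) and Fdft1 (0.109) then lost their calls. With each population past the threshold on its own the list had 2 higher and 0 lower members, with the Xist covariate 1 and 0, and without the 3 arrays high in Xist 3 and 1. In GM-BMM alone, Cyp51, Sqle and Fdft1 did not pass (limma adjusted p = 0.163, 0.0649 and 0.113).

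In glycolysis and the hypoxia response, 6 of 26 genes were higher and 1 lower. Aldoc, aldolase C, measured 9.36 and 9.83 in GM-BMDC, 9.81 and 9.87 in GM-BMM, and 6.58 and 6.35 in M-BMM (3.25 ± 0.15). Ndrg1, a hypoxia-induced gene, went the other way, at 9.89 and 9.38, 8.58 and 9.94, and 12.53 and 12.55 (-3.09 ± 0.34). Pfkp, a phosphofructokinase gene, differed by 1.35 ± 0.13. The higher count was 4 without either M-BMM array, 3 with each population past the threshold on its own and 10 without the 3 arrays high in Xist.

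Of 26 eicosanoid genes, 5 were higher (19.2%) and 2 lower (7.69%), against 5.26% and 5.82% of all genes. Ptgir, the prostacyclin receptor, differed by 1.79 ± 0.10, Alox5, the 5-lipoxygenase of leukotriene synthesis, by 1.78 ± 0.27 and Ltc4s, leukotriene C4 synthase, by 1.42 ± 0.24. Hpgds, which makes prostaglandin D2, was lower by -2.84 ± 0.40: it measured 6.20 and 7.92 in GM-BMDC, 9.20 and 9.48 in GM-BMM, and 11.09 and 10.97 in M-BMM. Alox5, Ltc4s and Hpgds lost their calls without M-BMM replicate 1 or 2, with adjusted p from 0.067 to 0.119, leaving 2 and 0, or 1 and 1, members higher and lower. Lysosome genes were lower in 10 of 44 cases (22.7%) and higher in 5 (11.4%), with a median of -0.26. The differences in Gaa (-0.93 ± 0.09) and Idua (-0.85 ± 0.10), enzymes that degrade glycogen and glycosaminoglycans, were larger in GM-BMDC (-1.47 and -1.37) than in GM-BMM (-0.38 and -0.34). Ctsk, cathepsin K, was higher, mostly in GM-BMM (2.61, against 0.53 in GM-BMDC), until M-BMM replicate 2 was left out (adjusted p = 0.0517). The lysosome counts were 2 and 2 without M-BMM replicate 1, and 1 and 2 without replicate 2, higher and lower. With replicate 2 of either GM-CSF population left out, 3 were higher. With each population past the threshold on its own 1 lysosome gene was higher and 0 lower, with the Y-linked covariate 3 and 5, and without the 3 arrays high in Xist 4 and 1.

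Of 51 myeloid transcription factor genes, 12 were higher (23.5%) and 3 lower (5.88%), with a median of 0.36. Against 5.26% higher and 5.82% lower among all genes, the lower share is not read as a result about the list. Beside Egr2, Bhlhe40 and Irf4, Ahr, the aryl hydrocarbon receptor, measured 8.92 and 8.96 in GM-BMDC, 8.89 and 8.16 in GM-BMM, and 5.98 and 5.82 in M-BMM (2.83 ± 0.19). The lower members were Spic, Maf and Batf (-1.18 ± 0.17). Without M-BMM replicate 1 or 2, 6 were higher and 1 lower in either case, with Maf (adjusted p = 0.0564 and 0.0577) and Batf (0.084 and 0.0676) no longer called. Without GM-BMM replicate 2 the lower count was 6, and without GM-BMDC replicate 2 it was 5. With each population past the threshold on its own, 6 were higher and 1 lower.

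The shared genes included microRNA genes, of which 4 are described, chosen after their values were seen. The probe sets read the gene or precursor region and not the mature miRNA. Mature sequences from RefSeq on GRCm38.p6 are shown because 2 of them come from the same locus, with the seed, bases 2 to 8, in capitals.
Mir99a (miR-99a-5p): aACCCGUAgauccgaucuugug
Mirlet7c-1 (let-7c-5p): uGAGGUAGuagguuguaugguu
Mir146 (miR-146a-5p): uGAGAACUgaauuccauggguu
Mir155 (miR-155-5p): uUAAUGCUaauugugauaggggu
No seed was shared among the 4. Mir99a and Mirlet7c-1 lie next to each other, with mature sequences at chr16:77598940-77598961 and chr16:77599672-77599693 on the plus strand, and their host transcript is Mir99ahg. Mir99ahg measured 5.01 and 4.58 in GM-BMDC, 5.53 and 5.15 in GM-BMM, and 7.87 and 7.67 in M-BMM (-2.70 ± 0.16, limma adjusted p = 0.000124). Mir99a was lower by -1.73 ± 0.10 and Mirlet7c-1 by -1.42 ± 0.10, the latter under 5.04 in every array. Mir155, a microRNA of activated immune cells, was higher: 8.95 and 7.87, 7.73 and 6.49, and 5.87 and 6.02 (1.81 ± 0.38, limma adjusted p = 0.0222). Mir146, which dampens Toll-like receptor signalling, was lower by -1.17 ± 0.20, again under 5.04 in every array.

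Of the shared genes, 690 were called between GM-BMDC and GM-BMM and 1519 were not. Over all genes, limma called 4.69% higher and 5.74% lower in this contrast. The shared genes were chosen with the same arrays and the same variance estimates, so nothing is read from their shares beside those of all genes. Among the 1049 shared higher genes, 300 (28.6%) were above in GM-BMDC, 107 (10.2%) below and 642 (61.2%) had no call. Among the 1160 shared lower genes, 257 (22.2%) were below in GM-BMDC, 26 (2.24%) above and 877 (75.6%) had no call. Among shared genes of at least 4-fold, 59 of 160 higher genes were above in GM-BMDC, 17 below and 84 without a call, and of 62 lower genes 26 were below, 3 above and 33 without a call. A missing call does not show that levels were equal.

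The difference from M-BMM was the larger in GM-BMDC for 732 of 1049 higher and 909 of 1160 lower genes. The median difference of higher genes was 1.01 in GM-BMDC and 0.74 in GM-BMM, and that of lower genes -0.82 and -0.55. These pairs of values share the M-BMM arrays, and the genes were chosen on the average of the 2 differences. No such count was taken over all genes, so nothing is read from these counts and medians. The number of graded genes, 690, fell to 402 without GM-BMDC replicate 1 and to 241 and 248 without M-BMM replicates 1 and 2.

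Among shared genes at least 4-fold from M-BMM, the 6 in each direction with the smallest difference between the GM-CSF populations are called even here. Their small differences, and where their intervals lie, follow from this choice and do not show that levels were equal. The higher ones were Axl, H2-M2, Clec4n, Cd1d1, the phospholipase gene Ddhd1 and the actin-associated gene Rai14. Cd1d1, which presents lipids to NKT cells, measured 8.42 and 8.06 in GM-BMDC, 8.11 and 8.38 in GM-BMM, and 5.25 and 4.58 in M-BMM. Its difference between the GM-CSF populations was -0.01, with a 95% interval from -0.55 to 0.54. The interval of Axl was narrower, from -0.29 to 0.30. The even lower genes were Crim1, Cnrip1, Slc35g1, Cd55b, Cd79b and Bank1. Crim1, a membrane protein gene with cysteine-rich repeats, measured 6.30 and 6.39, 6.27 and 6.45, and 8.71 and 8.87 (-2.44 ± 0.11), with an interval between the GM-CSF populations from -0.30 to 0.28.

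Cd79b and Bank1 encode signalling proteins of the B cell receptor pathway, and Fcrl1 and Fcrl5 are also known from B cells. Cd79b measured 8.49 and 7.32 in GM-BMDC, 7.69 and 7.95 in GM-BMM, and 10.16 and 10.21 in M-BMM (-2.32 ± 0.28), and Bank1 was lower by -2.27 ± 0.22. The defining B cell genes Cd79a (4.73 and 4.49) and Ms4a1 (4.98 and 5.34) were low in M-BMM, below their GM-BMDC values of 7.15 and 6.23, and 6.87 and 6.14. The mean of the 16 measured B lymphocyte genes was 6.27 to 6.40 in M-BMM, 5.90 to 6.01 in GM-BMM and 6.11 to 6.56 in GM-BMDC, with 0 called higher by limma (1 at an unadjusted p under 0.05) and 2 lower. Without M-BMM replicate 2, Cd79b lost its call (adjusted p = 0.0515).

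Some of the most graded shared genes differed from M-BMM in both GM-CSF populations. In GM-BMM, Ccl22 (1.79), Ccr7 (1.16) and Cp (-1.46) passed on their own (limma adjusted p = 0.0271, 0.0121 and 0.00285), while Fcgr4 (-1.33) and Maf (-0.93) did not (0.198 and 0.246). Others lay close to M-BMM in 1 population. Nr4a3, an immediate-early nuclear receptor gene, differed from M-BMM by 6.29 in GM-BMDC and 0.79 in GM-BMM. For Apol7c, of the apolipoprotein L family, these values were 5.89 and 0.37, and for Mmp25, a membrane-bound metalloprotease, 4.96 and 0.17. Cd209a, a lectin of the DC-SIGN family, gave 5.04 and 0.61, and its call ended without GM-BMM replicate 1 (adjusted p = 0.0624) and without M-BMM replicate 1 or 2 (0.223 and 0.181). In the other direction, Susd2 differed by 0.50 in GM-BMDC and 4.96 in GM-BMM, and the potassium channel gene Kcnn3 by 0.53 and 3.85. Siglece, a receptor for sialic acid, was lower by -5.07 in GM-BMDC and by -0.50 in GM-BMM. In these genes the non-overlap of all arrays rests on small differences in 1 population, and GM-BMM alone did not pass for Nr4a3, Apol7c, Mmp25, Cd209a and Siglece (limma adjusted p from 0.0866 to 0.806).

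**Figure D4:**
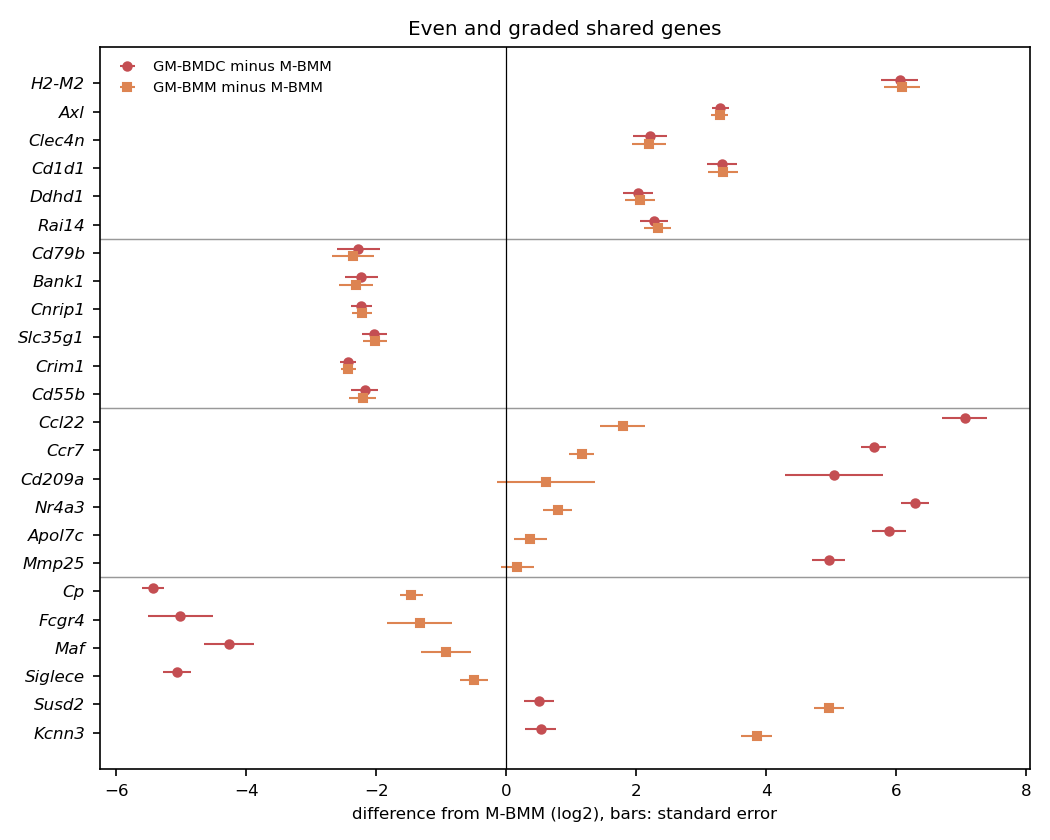
Points are log2 differences from M-BMM in GM-BMDC (circles) and GM-BMM (squares), with bars for the standard error from limma, for the 6 most even shared genes in each direction and the 6 most graded of each sign. Both populations coincide for H2-M2, Axl and Crim1, while Mmp25 (4.96 and 0.17) and Susd2 (0.50 and 4.96) differ from M-BMM mostly in 1 population.

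The remaining lists are read against 5.26% higher and 5.82% lower among all genes. Cell cycle and replication had 1 of 39 genes higher (Tyms, 0.70 ± 0.13) and 0 lower by limma (2 at an unadjusted p under 0.05), with a median of 0.12. Tyms was not called without M-BMM replicate 1 or 2 (adjusted p = 0.0841 and 0.157), and without GM-BMM replicate 2 the list had 5 higher and 1 lower. Toll-like receptors and adaptors had 0 of 21 higher by limma (4 at an unadjusted p under 0.05) and 2 lower (9.52%), Tlr1 (-2.71 ± 0.37) and Tlr6 (-0.96 ± 0.24). With each population past the threshold on its own, 0 were lower. In GM-BMM alone Tlr1 differed by -1.56 and Tlr6 by -0.21 (limma adjusted p = 0.0871 and 0.772). Both were lost without M-BMM replicate 1 or 2 (adjusted p from 0.0623 to 0.228), and Tlr6 without GM-BMM replicate 1 (0.0834). Without GM-BMM replicate 2, 4 were lower.

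Type I interferon response genes had 0 of 33 higher and 1 lower by limma, with a median of -0.3. At an unadjusted limma p under 0.05, 0 were higher and 15 lower. Between the GM-CSF populations, 25 were below in GM-BMDC and 0 above, against 5.74% and 4.69% of all genes. The lower gene was Oas2, a sensor of double-stranded RNA. It measured 6.84 and 7.53 in GM-BMDC, 10.11 and 10.41 in GM-BMM, and 10.58 and 10.53 in M-BMM. Its difference was -3.38 in GM-BMDC and -0.29 in GM-BMM (limma adjusted p = 0.57). This list turned on GM-BMM replicate 2. Its list mean was 9.60 in 1 GM-BMM array and 10.22 in the other, 9.61 and 9.70 in M-BMM, and 8.38 and 8.44 in GM-BMDC. Without GM-BMM replicate 2, 13 of its genes were lower, and without the 3 arrays high in Xist, where that array alone stands for GM-CSF, 13 were higher. Immediate-early and heat-shock genes, which can respond to handling, had 4 of 24 higher (16.7%: Egr2, Nr4a3, Fosl2 at 1.41 ± 0.12 and Hsph1 at 0.48 ± 0.12) and 1 lower, Hsp90aa1 (-0.50 ± 0.12). Hsph1 lost its call without any of 5 arrays (adjusted p from 0.0592 to 0.259), and Hsp90aa1 without 4 (0.0671 to 0.228). Without the 3 arrays high in Xist, 10 of this list were higher.

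Marker lists of other cell types each held at most 2 shared genes in either direction, from 0% to 8.33% higher and 0% to 12.5% lower. Neutrophil and granule genes had 1 of 23 higher, Mmp8, at 9.93 and 11.04 in GM-BMDC, 12.91 and 11.78 in GM-BMM, and 8.75 and 8.20 in M-BMM, and 2 lower, Csf3r and Mpo. Elane stayed between 5.78 and 6.08. Mast cell, basophil and eosinophil genes had 0 of 22 called either way by limma, with 6 higher and 1 lower at an unadjusted p under 0.05. Without GM-BMM replicate 2, 5 of them were higher. T and NK lymphocyte genes had 1 of 21 higher, Cd5 (0.46 ± 0.10), and 1 lower, Cd4 (-1.64 ± 0.16). Plasmacytoid dendritic cell, erythroid and megakaryocyte, and fibroblast and stromal genes had 1 higher and 1 lower of 12, 12 and 19. These were Klk1b27 and Cox6a2, Vwf and Gp9, and Kdr and Pecam1 (-2.10 ± 0.11), the last an adhesion molecule of endothelium and myeloid cells. Of these markers, Cd4 and Pecam1 kept their call without each single array, and the others lost it without M-BMM replicate 1, 2 or both (adjusted p from 0.0515 to 0.208). Without GM-BMM replicate 2, 4 plasmacytoid genes were lower. Their part in the shared differences was not tested.

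**Figure D5:**
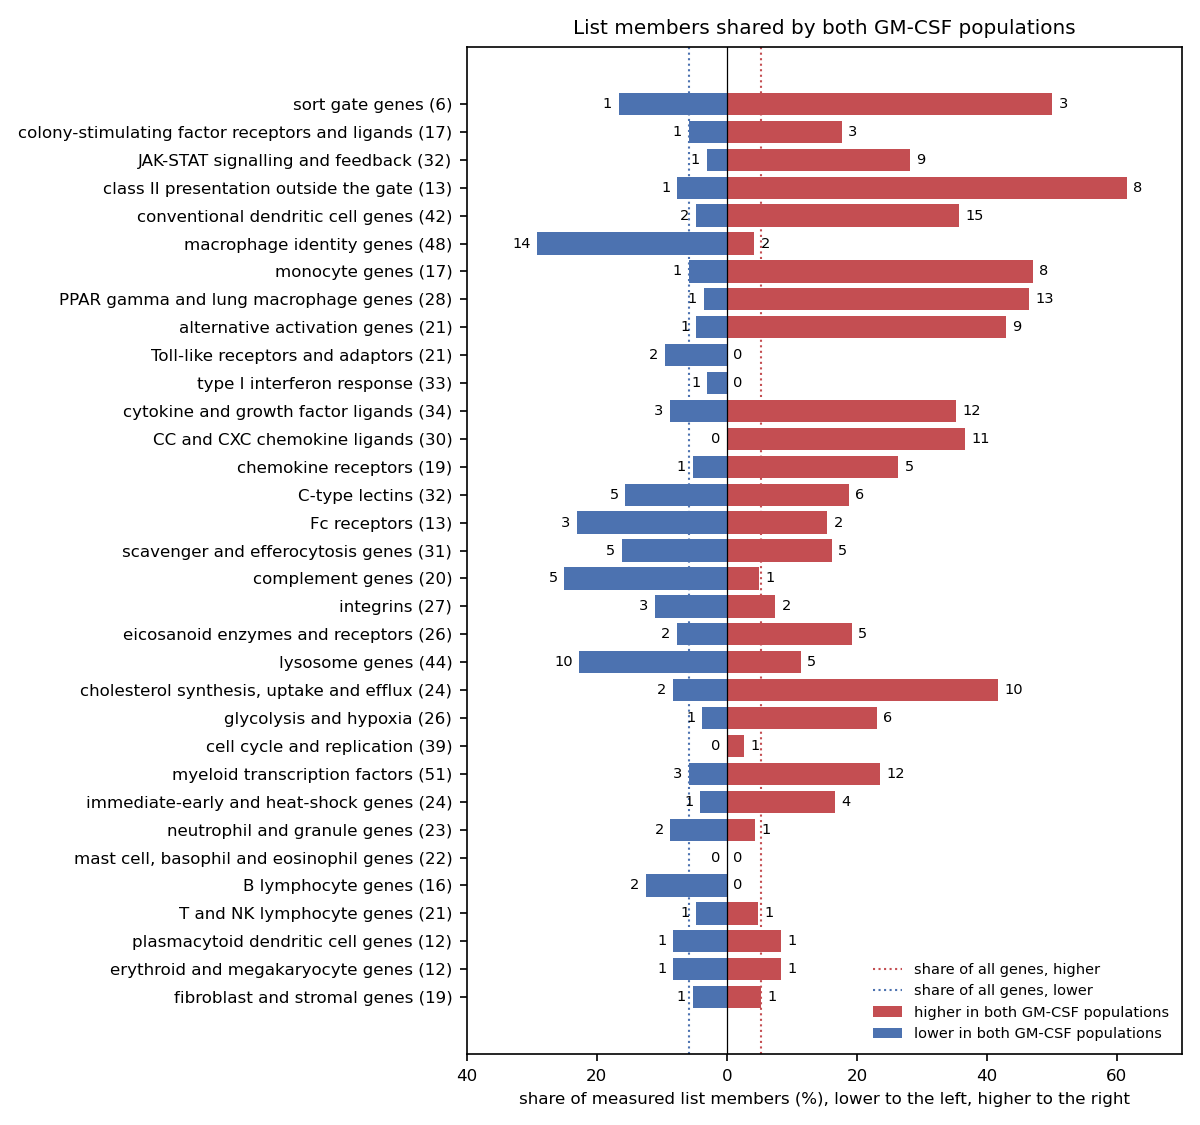
Bars give the percentage of measured list members called higher (right) or lower (left) in both GM-CSF populations, with member counts at the bar ends and list sizes in brackets; dotted lines mark the shares of all genes, 5.26% and 5.82%. Class II, monocyte, PPAR gamma and cholesterol lists reach far to the right, and macrophage identity genes to the left.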

How the data were processed

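The deposited values are log2 signals, made by the authors with Affymetrix Expression Console 1.1 and RMA per the submitters' processing notes. RMA subtracts background, gives all arrays 1 distribution and combines the probes of each set. The genome build is not given in the sources used here. The annotation gave 1 gene for 21789 of 35556 probe sets, several for 1621 and none for 12146. For 998 genes with several probe sets, the probe set with the highest mean was kept. Symbols of 19856 of 19939 genes matched RefSeq by gene identifier, and 2 were updated. Array medians ran from 6.18 to 6.28.

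All 6 arrays entered 1 limma 3.58.1 fit (R 4.3.3) with 3 groups, default moderation, 3 residual and 4.34 prior degrees of freedom, two-sided tests and Benjamini-Hochberg adjustment over all genes within each contrast. No filter or pseudocount was used. Intervals are 95% intervals from this fit. The median standard error of the shared difference was 0.114. The fit was tested on simulated data. Named genes were the 15 largest in each direction, up to 4 called members per list and direction, all gate and growth factor receptor genes, and the 6 most even and most graded of each sign. Predicted and clone names were left out. The members, the 34 lists and the rule were chosen with earlier results of these data known. Tables and figures were made in Python 3.11.15 with matplotlib 3.10.9.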

Additional observations from a re-analysis of the deposited data

How the results depend on the processing

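Of the 157 named calls, 154 were lost without moderation, 85 with the GM-CSF arrays as 1 group, 64 with each population past the threshold on its own, 55 with the Xist covariate and 35 without the 3 arrays high in Xist, where 69 differences moved over 1.5 times. None of the 157 reversed in the alternatives run. As reported the shared genes were 1049 higher, 1160 lower and 690 graded. They were 354, 226 and 240 with Xist as a covariate, and 678 and 572 with Y-linked genes as a covariate. They were 463, 282 and 338 at 2-fold or more, 400, 377 and 191 with each population past the threshold on its own, and 231 and 225 with the GM-CSF arrays as 1 group. Without moderation limma's ordinary fit left 6, 8 and 0, with 4097 genes at an unadjusted p under 0.05 in the shared contrast. Leaving out 1 array gave 357 to 1166 higher, 227 to 1224 lower and 241 to 716 graded. Without both GM-CSF arrays numbered 2 there were 1076 graded, and without the 3 arrays high in Xist 600 lower. The replicate block gave 988, 1048 and 656 and changed none of the 157 calls; deviations of same-numbered arrays correlated at 0.0241, -0.132 and 0.0263, which does not show pairing. The Y-linked genes nevertheless split by number in both GM-CSF groups, and whether same-numbered arrays share a source was not tested further. The other array sets, centring, filters, array weights, probe set rules and variance trend kept the counts within 1.5 times. The Xist fits, the crossed block and the set without arrays numbered 2 were added after seeing the data. An array left alone in its group is assumed to vary like the others, and the cause of each change was not tested. Signal over background is unknown, which limits low genes.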
